A study of Homo sapiens with 24 samples.

Results

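The 38 genes described here are a list drawn up for the amino acid response driven by the transcription factor ATF4. Control of these genes by ATF4 was not tested. They were chosen by symbol as ATF4-type stress factors, genes of amino acid synthesis and transport, and cytosolic tRNA synthetases. The choice was made with earlier results of these data known. They were sought among the 58780 genes of a deposited table for TPA-treated cells and the 13025 of a table for vehicle-treated cells. For TPA, 37 of the 38 had an adjusted p-value, NUPR1 having only an unadjusted one. For DMSO, 35 had one, and NUPR1, STC2 and VLDLR were not analysed there.

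The cells were MyLa and HuT 78, established lines of cutaneous T cell lymphoma, derived from mycosis fungoides and Sézary syndrome respectively. Each line carried either a non-targeting control (NTC) or a hairpin against PRKCQ (shPRKCQ), the gene of protein kinase C theta, and was given DMSO or TPA, a phorbol ester and activator of this kinase family. Of 24 libraries there were 3 in each of the 8 groups: MyLa NTC DMSO, MyLa shPRKCQ DMSO, MyLa NTC TPA, MyLa shPRKCQ TPA and the same for HuT 78. Doxycycline at 1 µg/ml for at least 72 h preceded the 24 h treatment in the knockdown cells, per the labels' protocols, and TPA was used at 10 ng/ml. Whether NTC cells also received doxycycline, which promoter drove the hairpin and whether the lines were clones is not given in the sources used here, so the hairpin and doxycycline cannot be told apart. The design asks how the transcriptome of these lymphoma cells depends on PRKCQ with and without TPA.

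The values are comparisons made by the authors. Each table sets 6 shPRKCQ against 6 NTC libraries, both lines together, so no value per library, per line or of the level of a gene enters here, and sequencing depth is unknown. The fold change is on the log2 scale. It is negative where shPRKCQ cells were lower, a direction taken from PRKCQ itself, for which the authors' deposited tables give -2.11 with DMSO and -2.08 with TPA (adjusted p = 5.61e-14 and 1.67e-15). The authors' adjusted p had to be under 0.05 for a gene to count as changed. Of 8 T cell markers 3 were tested with DMSO and 7 with TPA, of 4 B cell markers 1 and 3, and of 4 myeloid markers 0 and 2, none past the authors' threshold, but without levels the cell type cannot be checked further. The lowest of these was the B cell receptor gene CD79B, at -1.10 with TPA by the authors' deposited table (adjusted p = 0.217, or 0.0169 with p-values rescaled for their spread over all genes), and its part in the results was not tested. The labels number the replicates without saying that they came from separate cultures, so the spread among replicates may be technical only. Each side of a comparison held 3 libraries of each line. As the model formula is not given, the spread behind the p-values may include the difference between the lines. That would make the p-values larger, and it was not tested. Each fold change is of bulk RNA, in which fewer cells of a type and less RNA per cell cannot be told apart.

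When amino acids run short, uncharged tRNA activates the kinase GCN2, which phosphorylates the initiation factor eIF2. General translation slows, while the messenger RNA of ATF4 is translated more, through upstream open reading frames in its leader. ATF4 then pairs with C/EBP-family proteins on a composite site and turns on genes that import amino acids, make them and load them onto tRNA. T cells depend on this program when they start to proliferate, because activation raises their demand for amino acids.

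The composite site is shown here because ATF4 acts through it with C/EBP-family proteins. It was searched as TGATGNAA on both strands, as 1 motif with no other motif searched, in RefSeq promoter windows (GRCh38.p14, 250 bases before to 50 after a gene start). Of the 38 genes 32 had a window, and 14 of the 32 (43.8%) held a match in at least 1 of their windows, while 18 held none. Among all 27305 genes with a window 4.46% held a match. The 38 genes were chosen as genes of the ATF4 response, so this contrast is no test of their tie to ATF4. Counted by window of 300 bases, a match was present in 26.4% of the 53 windows of these genes and in 3.62% of all 35116 windows. The letters TGATGCAA, or TTGCATCA where the site lies on the other strand, made up 9 of the 14 matches. These 9 follow with that of ASNS, as stretches on the strand of the gene, 5′ to 3′, with the match in capitals.
CEBPG: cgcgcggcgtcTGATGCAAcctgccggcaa
CHAC1: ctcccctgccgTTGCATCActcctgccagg
SLC1A5: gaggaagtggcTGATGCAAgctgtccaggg
AARS: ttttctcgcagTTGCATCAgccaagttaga
MARS: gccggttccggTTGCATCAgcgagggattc
NARS: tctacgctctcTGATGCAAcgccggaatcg
IARS: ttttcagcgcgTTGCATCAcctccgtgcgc
TARS: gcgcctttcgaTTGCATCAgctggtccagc
CARS: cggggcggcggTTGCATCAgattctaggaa
ASNS: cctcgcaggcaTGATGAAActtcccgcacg

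The stretch of CEBPG lies at chr19:33374060-33374089 on the plus strand, in an intron of GENCODE release 29. That of AARS lies at chr16:70289675-70289704 on the minus strand, before the annotated gene. The other 8 matches shown overlap an exon of at least 1 annotated transcript of their gene. They are at chr15:40953251-40953280 (plus, CHAC1), chr19:46784893-46784922 (minus, SLC1A5), chr12:57488053-57488082 (plus, MARS), chr18:57621804-57621833 (minus, NARS), chr9:92293692-92293721 (minus, IARS), chr5:33440956-33440985 (plus, TARS), chr11:3057407-3057436 (minus, CARS) and chr7:97872458-97872487 (minus, ASNS). The remaining matches were those of ATF3, SLC7A1, SLC3A2 and GARS. A match is a description of these letters and was not tested as a binding site. With DMSO the median log2 fold change, computed from the authors' deposited table, was -0.23 over the 14 genes with a match and -0.18 over the 16 tested genes with a window but no match, a difference that was not tested. With TPA the medians were 0.0027 over the 14 with a match and -0.0020 over the 18 without. Of the 3 genes with an unadjusted p under 0.05 with DMSO, SLC6A9 and CTH held no match and PYCR1 had no window.

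In vehicle-treated cells nearly all of these genes had a small negative log2 fold change, and none passed the test. Of the 35 genes tested 33 had a negative log2 fold change, the exceptions being CEBPG and DDIT4. The median was -0.22, computed from the authors' deposited table, where all 13007 genes tested had a median of 0.0075 and 47.7% were negative. The authors' adjusted p (DESeq2 is listed in the submitters' processing notes) was under 0.05 for 0 of the 35 genes, beside 0.108% of all genes (0.0769% lower and 0.0308% higher), and under 0.1 for 0, beside 0.146%. At an unadjusted p under 0.05 there were 3, all negative, namely SLC6A9, PYCR1 and CTH, beside 3.04% of all genes in either direction and 1.67% with a negative value. After the p-values were rescaled for their narrow spread over all genes, 1 of the 35 passed, SLC6A9, beside 0.83% of all genes and 0.523% called lower. Because the list was drawn up with earlier results of these data known, its contrast with all genes is a description. It is no independent support for a shift of the list. A shared direction of genes that vary together is not a replicate of the effect, and no test over the list was made.

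**Figure D1:**
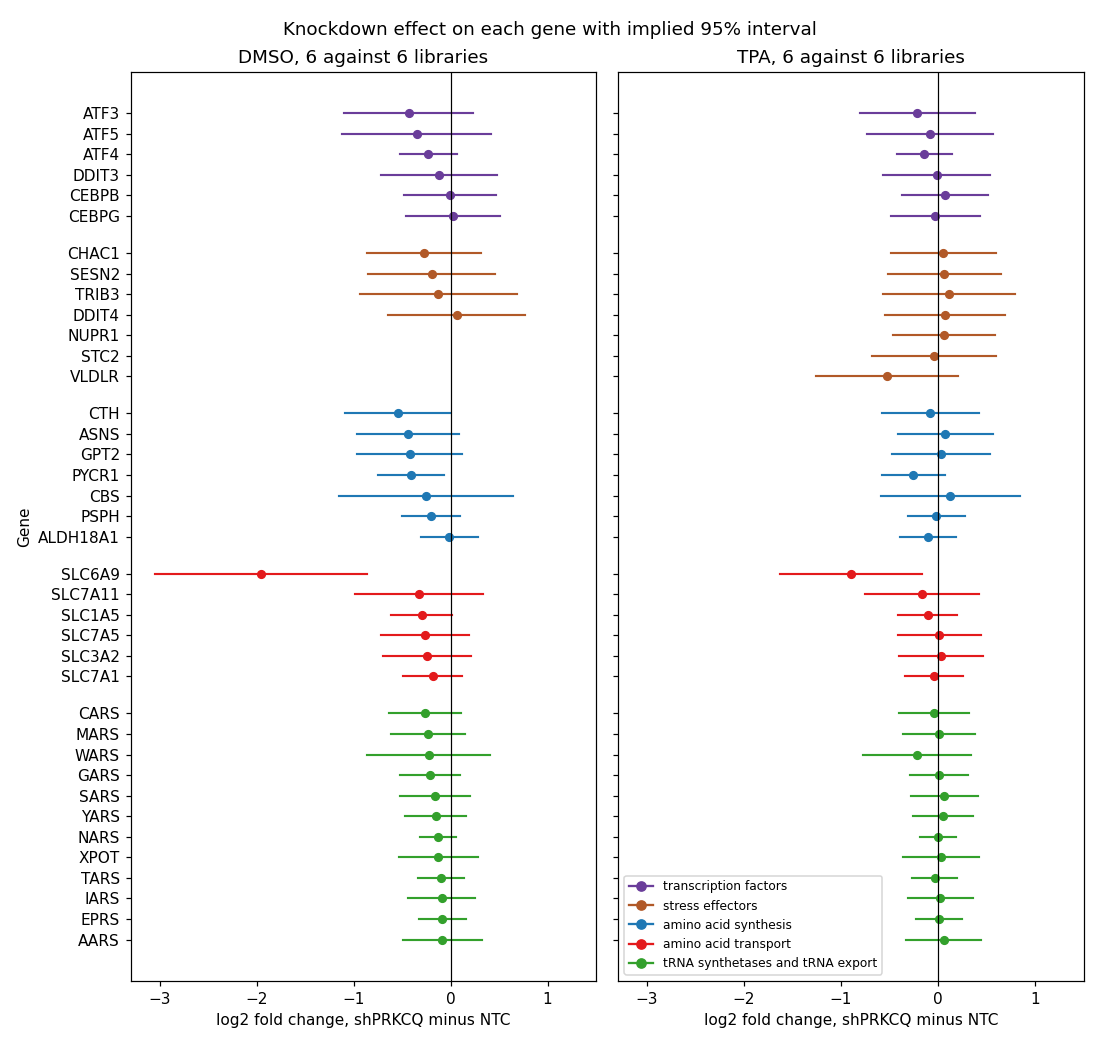
Log2 fold change (shPRKCQ minus NTC, horizontal axis) of each gene in DMSO (left) and TPA (right), coloured by role; points are the authors' values and lines the implied 95% intervals. In DMSO 33 of 35 points lie left of 0, with SLC6A9 at -1.96 far from the rest, and in TPA 19 of the 37 genes with an adjusted p lie left of 0; NUPR1 is drawn beside them.

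Transport gave the widest range. SLC6A9 encodes GLYT1, a sodium- and chloride-coupled transporter of glycine. The authors' deposited table has it at -1.96 with DMSO (unadjusted p = 0.000442, adjusted p = 0.205), which is 25.7% of the NTC level with an implied 95% interval of 12.1% to 54.9%. An implied interval is computed from the fold change and the p-value. It is a 95% interval only if the deposited fold changes were not shrunken, which the sources used here do not give. By size it was the fifth most negative of the 13007 genes, and by p-value it ranked 28. In TPA the authors' deposited table has it at -0.90 (unadjusted p = 0.016, adjusted p = 0.963), or 53.7% of the NTC level with an implied interval of 32.4% to 89.0%. Neither value passed the authors' adjustment. With rescaled p-values the adjusted p of SLC6A9 was 0.00155 in DMSO and 0.242 in TPA.

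The SLC6A9 locus (ENSG00000196517.11, chromosome 1, 43991500 to 44031467, minus strand) is overlapped on the opposite strand by CCDC24 and the long noncoding RNA AL139220.2. The protocols describe strand-specific libraries, but whether counting used the strand is not given in the sources used here. The authors' deposited tables put CCDC24 at -0.06 with DMSO and -0.05 with TPA. For AL139220.2 the authors' deposited tables give -0.63 and -0.31, with unadjusted p = 0.192 and 0.409. Among the protein-coding neighbours within 100000 bases the authors' deposited DMSO values ran from -0.24 for ARTN to 0.21 for DPH2. This look at neighbours was chosen after the value of SLC6A9 was seen.

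The other 5 transporters were all negative in DMSO, between -0.33 and -0.18 by the authors' deposited table. SLC1A5, the glutamine transporter ASCT2, has -0.30 with DMSO (unadjusted p = 0.0636) and -0.11 with TPA (unadjusted p = 0.493) in the authors' deposited tables. For SLC7A11, the cystine and glutamate exchanger xCT, the authors' deposited tables give -0.33 with DMSO and -0.16 with TPA. SLC7A5 and SLC3A2 are the light and heavy chains of the leucine transporter LAT1. In DMSO they stood close together, at -0.27 and -0.25 in the authors' deposited table. With TPA the authors' deposited table puts them at 0.01 and 0.03. SLC7A1, the arginine and lysine carrier CAT1, had -0.18 and -0.04 in the authors' deposited tables. Its implied 95% interval in DMSO, -0.49 to 0.12, includes 0, as do those of the other 4.

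Amino acid synthesis had the lowest median of the roles in DMSO, -0.41 over 7 genes, all negative and none past the threshold. PYCR1 (chromosome 17, 81932384 to 81942412, minus strand) makes proline from pyrroline-5-carboxylate in mitochondria. By the authors' deposited table it was at -0.41 (unadjusted p = 0.0173), or 75.3% of the NTC level with an implied interval of 59.5% to 95.1%. CTH (chromosome 1, 70411218 to 70439851, plus strand), the enzyme that releases cysteine from cystathionine, was the lowest of the 7. By the authors' deposited table it was at -0.55 (unadjusted p = 0.0461), or 68.4% of the NTC level with an implied interval of 47.1% to 99.4%. The adjusted p of both was 1.00 in the authors' deposited table. ASNS, which makes asparagine from aspartate and glutamine, was at -0.44 and GPT2, a mitochondrial alanine transaminase, at -0.42 in the authors' deposited table, with implied intervals that include 0. PSPH, the last step of serine synthesis, was at -0.20 in DMSO by the authors' deposited table, and ALDH18A1, the first step of proline synthesis from glutamate, at -0.01.

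With TPA the same 7 synthesis genes had a median of -0.02 in the authors' deposited table, and 4 were negative. The lowest was now PYCR1 at -0.25 (unadjusted p = 0.128), followed by ALDH18A1 at -0.10 (unadjusted p = 0.486) and CTH at -0.08 by the authors' deposited table. ASNS stood at 0.07 and GPT2 at 0.03 by the authors' deposited table. CBS, cystathionine beta-synthase, has -0.26 with DMSO and 0.13 with TPA in the authors' deposited tables, and is uncertain. GRCh38 holds a near-identical copy, CBSL, on the same chromosome, so reads could be split between them. The authors' deposited tables put CBSL at -0.89 with DMSO (unadjusted p = 0.0659) and -0.35 with TPA.

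The stress transcription factors had a median of -0.18 in DMSO over 6 genes, 5 of them negative. For ATF4 itself (chromosome 22, 39519695 to 39522685, plus strand) the authors' deposited tables give -0.23 with DMSO (unadjusted p = 0.121) and -0.14 with TPA (unadjusted p = 0.334). That is 85.2% and 90.7% of the NTC level, with implied intervals of 69.7% to 104% and 74.5% to 111%. Its control is largely translational, which these values do not measure. ATF3, a partner and target of ATF4, was at -0.43 and -0.21 by the authors' deposited tables (unadjusted p = 0.204 and 0.486). ATF5, a relative of ATF4 that is also controlled at translation, has -0.35 with DMSO and -0.08 with TPA in the authors' deposited tables. Of the 6 factors the C/EBP partners were nearest to 0 with DMSO, though not with TPA. CEBPB was at -0.01 and 0.07 and CEBPG at 0.02 and -0.03 in the authors' deposited tables. DDIT3, the death-linked factor CHOP, has -0.12 and -0.02 in the authors' deposited tables. DDIT3 and MARS overlap tail to tail on opposite strands.

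The stress effectors were few in DMSO, with 4 of 7 tested. CHAC1, which degrades glutathione, was at -0.28 and SESN2, a leucine sensor that restrains mTORC1, at -0.19 by the authors' deposited table (unadjusted p = 0.359 and 0.562). TRIB3, a pseudokinase that feeds back on ATF4, was at -0.13 and DDIT4, the mTORC1 inhibitor REDD1, at 0.06 by the authors' deposited table. In TPA these 4 lay between 0.05 and 0.11 in the authors' deposited table, TRIB3 being the highest (unadjusted p = 0.745). The authors' deposited table has VLDLR, a lipoprotein receptor, at -0.52 with TPA (unadjusted p = 0.16), the second most negative of these genes, with an implied interval of -1.26 to 0.21 that includes 0. STC2, a secreted glycoprotein, was at -0.04 and NUPR1, a small chromatin regulator, at 0.06 with TPA by the authors' deposited table.

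The tRNA synthetases load amino acids onto tRNA, and XPOT exports tRNA from the nucleus. All 12 of these genes were negative in DMSO within a narrow band, from -0.26 for CARS to -0.08 for AARS in the authors' deposited table, with a median of -0.14. CARS (cysteine) had an unadjusted p of 0.169 and GARS (glycine), at -0.22, one of 0.17 in the authors' deposited table. MARS (methionine) was at -0.24, WARS (tryptophan) at -0.23, SARS (serine) at -0.16 and YARS (tyrosine) at -0.16 by the authors' deposited table. NARS (asparagine) was at -0.13, XPOT at -0.13, TARS (threonine) at -0.10, IARS (isoleucine) at -0.09 and EPRS (glutamate and proline) at -0.09 in the authors' deposited table. The implied 95% interval of each of the 12 included 0 and lay within -1 and 1, so a halving or doubling was outside it. This holds only if the fold changes were not shrunken. Over all genes tested with DMSO 12096 of 13007 had an interval within -1 and 1. NARS was the most precise of the 12, with an implied standard error of 0.096 and an interval of -0.32 to 0.06.

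Under TPA the 12 genes had a median of 0.01 in the authors' deposited table, and 4 were negative. By the authors' deposited table WARS was the lowest at -0.22 (unadjusted p = 0.451) and SARS the highest at 0.06 (unadjusted p = 0.716). WARS is also induced by interferon gamma. The remaining 10 lay between -0.04 and 0.06 in the authors' deposited table.

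Synthetases outside this set were centred near 0. The other 9 cytosolic synthetases had a median of 0.03 in DMSO, computed from the authors' deposited table, with 4 negative and 0 past the threshold. They ranged from VARS (valine) at -0.12 to RARS (arginine) at 0.11, and DARS (aspartate), with the lowest p of the 9 (unadjusted p = 0.447), was at 0.06 by the authors' deposited table. In TPA their median was 0.0050, with LARS (leucine) at 0.10 and DARS at 0.05 in the authors' deposited table. For the 11 synthetases chosen the medians computed from the authors' deposited tables were -0.16 with DMSO and 0.01 with TPA. No test of the difference between the 2 sets was made, and the chosen 11 were picked with results of these data known. None of the 6 of the other 9 with a promoter window held TGATGNAA, beside 4.46% of all genes with a window. In the set 7 of 11 tRNA genes with a window held it, these 11 including XPOT and lacking YARS. The set was chosen as genes of the ATF4 response, so this contrast is no test. Its bearing on the fold changes was not tested.

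**Figure D2:**
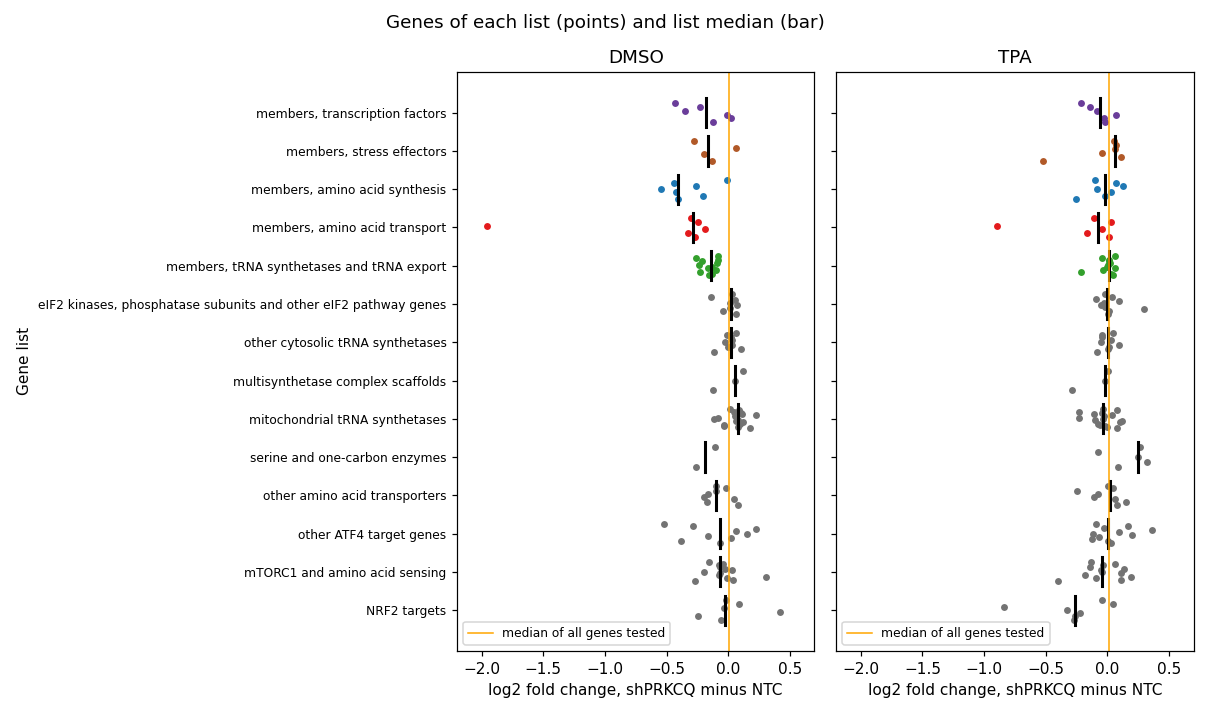
Log2 fold change (horizontal axis) of the genes of each list in DMSO and TPA; coloured points are the 38 genes by role, grey points related genes, black bars list medians and orange lines the median of all genes tested. In DMSO the 5 medians of the roles lie between -0.41 and -0.14, and that of the other cytosolic synthetases at 0.03.

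Mitochondrial synthetases, which serve translation in the organelle, were mostly positive in DMSO, with 13 of 17 above 0 and a median of 0.08 in the authors' deposited table. HARS2 (histidine) was at 0.23 (unadjusted p = 0.0244) and MARS2 (methionine) at -0.11 by the authors' deposited table, and none passed after adjustment. In TPA their median was -0.03, with LARS2 at -0.23 and RARS2 at 0.10 in the authors' deposited table. The scaffolds of the multisynthetase complex were EEF1E1 at -0.13 and AIMP1 at 0.12 with DMSO by the authors' deposited table. With TPA the authors' deposited table has EEF1E1 at -0.29 (unadjusted p = 0.0299, adjusted p = 1.00) and AIMP2 at -0.02.

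Upstream of ATF4, a list of eIF2 pathway genes held the kinases, the phosphatase subunits PPP1R15A and PPP1R15B, EIF2S1, EIF2B5, GCN1 and IMPACT. Its medians, computed from the authors' deposited tables, were 0.02 over 8 genes with DMSO and -0.0039 over 10 with TPA, with 0 past the threshold in either. EIF2AK4, the gene of the amino acid sensor GCN2, has 0.06 with DMSO and 0.09 with TPA in the authors' deposited tables. EIF2AK3, the endoplasmic reticulum stress kinase PERK, was at -0.14 and -0.09 by the authors' deposited tables, and IMPACT, an inhibitor of GCN2, at 0.30 in TPA (unadjusted p = 0.139). Of the genes of mTORC1 and amino acid sensing 0 of 13 passed in either treatment. The authors' deposited tables put TSC2, an inhibitor of mTORC1, at -0.27 with DMSO and -0.40 with TPA (unadjusted p = 0.126 and 0.0195). DEPDC5 and NPRL2, subunits of the GATOR1 complex, were at -0.15 with DMSO and -0.14 with TPA respectively, by the authors' deposited tables.

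Of other genes that ATF4 is known to control 0 of 9 in DMSO and 0 of 11 in TPA passed, and 5 were negative in each. ADM2 was at -0.52 and PCK2, a mitochondrial enzyme of gluconeogenesis, at -0.38 with DMSO by the authors' deposited table (unadjusted p = 0.0953 and 0.177). With TPA the cytokine GDF15 stood at 0.36 and NUCB2 at -0.12 by the authors' deposited table. The serine and one-carbon enzymes SHMT2 and MTHFD2 were at -0.26 and -0.11 with DMSO by the authors' deposited table. With TPA the authors' deposited table has them at 0.09 and -0.08. PSAT1 and PHGDH were not analysed with DMSO, and were at 0.33 and 0.25 with TPA by the authors' deposited table. Other amino acid transporters had 6 of 8 negative in DMSO and 3 of 8 in TPA, none past the threshold. Among them SLC38A2, the stress-induced carrier SNAT2, was at -0.20 and -0.10 and SLC38A1 at -0.17 with DMSO by the authors' deposited tables. The authors' deposited table has SLC36A4 at -0.25 with TPA.

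NRF2 targets share SLC7A11 with this set and answer oxidative stress. Of the 7 tested in TPA 6 were negative and 0 passed the threshold, with a median of -0.26 in the authors' deposited table. By the authors' deposited table HMOX1, heme oxygenase, was at -0.83 (unadjusted p = 0.00218, adjusted p = 0.382) and TXNRD1, thioredoxin reductase, at -0.27 (unadjusted p = 0.0462). With rescaled p-values HMOX1 had an adjusted p of 0.0445. In DMSO HMOX1 was not analysed, and 4 of the other 6 were negative, with a median of -0.03 in the authors' deposited table. SRXN1 was at -0.25 and OSGIN1 at 0.42 with DMSO by the authors' deposited table.

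With TPA the 37 genes tested lay around 0. Of them 19 were negative, with a median of -0.0030 in the authors' deposited table, where all 19417 genes tested had a median of 0.01 and 47% were negative. By the authors' adjusted p 0 of 37 passed, beside 0.113% of all genes (0.0876% lower and 0.0258% higher), under 0.1 also 0, beside 0.201%, and with rescaled p-values 0, beside 0.587%. SLC6A9 was the only 1 of the 37 with an unadjusted p under 0.05, beside 3.99% of all genes in either direction and 1.93% with a negative value. Of the 37 genes 34 had a fold change smaller than its implied standard error, whereas in DMSO 19 of 35 did. Over all genes tested this held for 14595 of 19417 with TPA and for 10329 of 13007 with DMSO.

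The log2 fold change was higher with TPA than with DMSO for 33 of the 35 genes with both values, beside 47.5% of the 13007 genes in both tables. The genes were chosen with earlier results of these data known, and 33 of the 35 were negative with DMSO. This count is therefore a description and no independent support for a difference. The median difference, TPA minus DMSO, was 0.19, computed from the authors' deposited tables, against -0.0084 for all genes. A negative value in DMSO went with a negative one in TPA for 16 genes and with a positive one for 17. Over all 13007 genes the same counts were 3984 and 2219. The tables share no library, and the labels do not say how their cultures were related. Each difference was tested over its implied standard error with Benjamini-Hochberg adjustment over all 13007 genes. Of the 35 genes 0 passed, beside 0% of all genes; 0 of the 35 had an unadjusted p under 0.05, beside 0.438%, and 0 passed with rescaled p-values, beside 0.138%.

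The largest difference was that of SLC6A9, 1.06 with an implied interval of -0.25 to 2.38 (unadjusted p = 0.113). Next came ASNS with 0.51 (-0.21 to 1.23, unadjusted p = 0.163), CTH with 0.47 (-0.27 to 1.20) and GPT2 with 0.46 (-0.28 to 1.20). For the precise NARS the difference was 0.13 with an interval of -0.14 to 0.39. The single values therefore do not show that any of these genes answered the knockdown differently with TPA, and the intervals do not show that they answered alike. Across the 35 genes the fold changes of the treatments gave Pearson's r of 0.852 and Spearman's rho of 0.358, and without SLC6A9 an r of 0.379 and a rho of 0.300 over 34. Over all 13007 genes in both tables r was 0.381 and rho 0.398. These are descriptions across genes of the same libraries, not replicates.

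**Figure D3:**
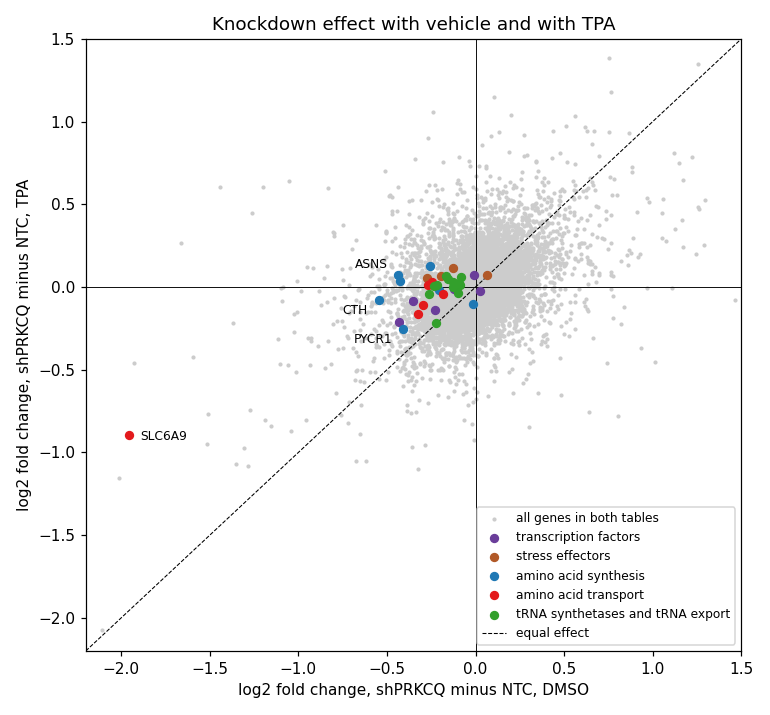
Log2 fold change in DMSO (horizontal axis) against TPA (vertical axis) for the 35 genes with both values, coloured by role, over all 13007 genes in grey; genes beyond the axes are not drawn and the dashed line marks equal effects. Of the 35 genes 33 lie above the dashed line, and SLC6A9, at -1.96 and -0.90, is the farthest of them from 0.

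The scale of the 2 tables may not be the same, since the shrinkage of fold changes is not given. The implied standard errors of the 35 genes were lower in TPA, with a median ratio of 0.949 to DMSO. For SLC6A9 the ratio was 0.668, the lowest of the 35, with errors of 0.56 in DMSO and 0.37 in TPA, and the part of scale in its smaller fold change with TPA was not tested. Over all genes in both tables the median ratio was 0.970. On the scale of z, the fold change over its error, SLC6A9 was at -3.51 in DMSO and -2.41 in TPA. The difference of z-values passed for 0 of the 35 genes.

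**Figure D4:**
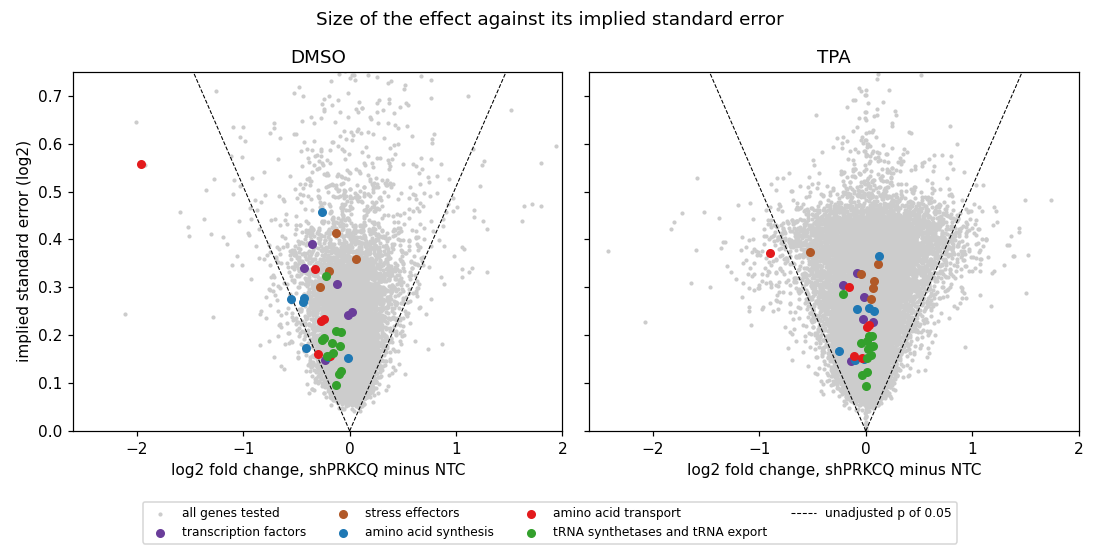
Log2 fold change (horizontal axis) against the implied standard error (vertical axis) in DMSO and TPA, with the 38 genes coloured by role over all genes tested in grey; genes beyond the axes are not drawn and dashed lines mark an unadjusted p of 0.05. SLC6A9, PYCR1 and CTH lie outside the lines in DMSO and SLC6A9 alone in TPA.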

How the data were processed

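Strand-specific poly(A) RNA sequencing of 24 libraries was analysed through 2 comparison tables. Per the submitters' processing notes STAR 2.5.3a, RSEM 1.3.0, DESeq2 1.18.1 and GRCh38 were used; the sources used here do not give the model formula, shrinkage or use of molecular identifiers. Per the file headers, each gene has 3 deposited values over both lines together: log2 fold change, p-value and p-value after adjustment. The planned test of counts was replaced by the authors' p-values, as the tables hold comparisons.

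Signed z-values were computed from the p-values, an implied standard error as fold change over z, and a 95% interval from it. Rescaled p-values divide z by its robust SD (0.756 in DMSO, 0.838 in TPA, 0.587 for the difference). Gene identifiers matched GENCODE release 29 for all 13025 and 58780 genes. Promoter windows were matched through current symbols. Statistics were tested on simulated data. Python 3.11.15, numpy 2.4.6, pandas 2.3.3, scipy 1.17.1 and matplotlib 3.10.9 were used. Depth is unknown.

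The genes and lists were chosen with earlier results of these data known. Fold change and unadjusted p are given, in the table concerned, for genes of the set with an unadjusted p under 0.05. They are also given for the 2 of lowest p per role and table. Of each related list the 2 of lowest p per table are named.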

Additional observations from a re-analysis of the deposited data

How the results depend on the processing

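No paired analysis was possible because only comparisons, with no value per library, were used. For the same reason other normalizations and tools, left-out replicates and a filter on low counts were not run. The count of the 38 genes past the threshold stayed at 0 in both treatments at an adjusted p under 0.1, with a minimum fold change, with adjustment over every gene with a p-value and over genes of both tables. With rescaled p-values it was 1 in DMSO, SLC6A9, and 0 in TPA; over all genes this setting gave 108 calls in place of 14 in DMSO and 114 in place of 22 in TPA. The median in TPA, -0.0030, turned to 0.0084 over genes in both tables and to 0.0027 without SLC6A9, a setting chosen after seeing the data. In DMSO the median was -0.21 without SLC6A9 and -0.22 when centred on all genes. The difference between treatments passed for 0 of the 35 genes with rescaled p-values, with z-values and at an adjusted p under 0.1. What depth limits could not be assessed.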
